A study of Mus musculus with 23 samples.

Results

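The semaphorin ligands Sema3a, Sema3c, Sema3d, Sema3e and Sema6a, the plexin receptors Plxna2, Plxna4 and Plxnd1 and the neuropilin co-receptors Nrp1 and Nrp2 were followed in mouse medulloblastoma grafts given a Smoothened antagonist. These 10 genes, of 18193 on the array, were taken by their platform symbol, and all 29 probe sets carrying those symbols were included. They were picked because earlier results from the same arrays were known, so their values across the groups are a description and no p-value is given for them. Of the 29 probe sets, 26 passed a filter on low signal, and each gene is described by its main probe set, the tested one with the highest mean log2 signal.

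Gene expression was measured on 23 arrays, each a tumour grown under the skin of a nude mouse. All tumours, controls included, came from the Ptch+/-HIC+/- mouse, heterozygous for the Hedgehog receptor gene Ptch1 and for HIC, and nude mice lack a thymus-derived T cell compartment. Resistant tumours were treated with NVP-LDE225 at 160 mg/kg (3 arrays) or at 40 mg/kg (3 arrays), with no stated time. Other tumours received 40 mg/kg of NVP-LDE225, which blocks the Hedgehog signal transducer Smoothened, and were collected at 4, 8, 24 and 48 h (3 arrays each). The controls were 2 vehicle arrays at 4 h and 3 vehicle arrays with no stated time, called the vehicle arrays below. No age is stated, and neither is whether replicates were separate animals, so p-values measure only the spread between these samples. Graft and host are both mouse, so the signal of a gene sums tumour and host cells, and fewer cells of a type cannot be told apart from less RNA per cell.

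Semaphorins are guidance proteins that repel or attract growing axons, migrating neurons and vessel sprouts. Plexins span the membrane and carry the signal to the actin cytoskeleton, while most class 3 semaphorins, which are secreted, need a neuropilin beside the plexin. Neuropilins also bind forms of vascular endothelial growth factor (VEGF). In the mouse cerebellum, the tissue in which medulloblastoma arises, Sema6a and Plxna2 act in the migration of granule neurons.

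The 250 bases before the annotated start of 4 genes are shown because Nrp1 and Nrp2 moved together after treatment and because Sema3e and Plxna2 were the 2 genes whose signal was called different between the resistant dose groups. The windows lie at chr8:128358823-128359072 (Nrp1), chr1:62703067-62703316 (Nrp2), chr5:14025026-14025275 (Sema3e) and chr1:194619579-194619828 (Plxna2), all on the plus strand of GRCm38.p6, from RefSeq. Capitals mark matches, on either strand, to the GC box GGGCGG or the GLI core GACCACC. The sequences run 5′ to 3′.
Nrp1: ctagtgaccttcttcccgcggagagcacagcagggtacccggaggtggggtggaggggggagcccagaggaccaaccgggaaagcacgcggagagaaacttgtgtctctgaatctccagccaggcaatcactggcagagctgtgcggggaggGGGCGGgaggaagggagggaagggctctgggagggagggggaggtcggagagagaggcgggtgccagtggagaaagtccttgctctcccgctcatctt
Nrp2: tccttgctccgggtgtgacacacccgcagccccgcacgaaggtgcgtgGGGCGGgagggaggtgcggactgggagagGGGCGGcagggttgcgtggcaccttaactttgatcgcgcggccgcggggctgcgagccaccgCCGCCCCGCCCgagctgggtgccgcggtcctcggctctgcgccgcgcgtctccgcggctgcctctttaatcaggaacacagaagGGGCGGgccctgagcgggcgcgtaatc
Sema3e: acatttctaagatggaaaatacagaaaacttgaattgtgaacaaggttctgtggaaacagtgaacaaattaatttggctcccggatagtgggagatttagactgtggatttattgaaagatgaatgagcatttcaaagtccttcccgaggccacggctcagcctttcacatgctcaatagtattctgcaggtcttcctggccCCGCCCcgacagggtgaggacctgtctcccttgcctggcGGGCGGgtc
Plxna2: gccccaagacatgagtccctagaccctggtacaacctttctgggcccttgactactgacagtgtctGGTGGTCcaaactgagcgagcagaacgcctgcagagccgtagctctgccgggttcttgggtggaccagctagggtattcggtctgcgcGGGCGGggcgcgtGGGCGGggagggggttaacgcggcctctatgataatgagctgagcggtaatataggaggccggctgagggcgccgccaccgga

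Promoter windows were found for 8 of the 10 genes. The GC box was in the windows of Nrp1, Nrp2, Plxna2, Plxnd1, Sema3c and Sema3e, 6 of 8, against 32.7% of 32851 windows of the same length in the RefSeq table. Nrp2 held 5 GC boxes, a pair of which overlap by their shared base, Sema3e and Plxna2 held 2 each, and Nrp1 held 1. The GLI core GACCACC, the leading part of the 9-base GLI consensus GACCACCCA, was in the Plxna2 window alone among the 8, against 2.34% of all windows. The longer GACCACCCA was in none of the 8, against 0.225% of all windows. Of 3 E-box forms, CACGTG and CAGCTG were in none of the 8, against 6.02% and 13% of all windows, and CACCTG was in the Sema3d window, against 17.2%. All 6 motifs were searched on both strands, a match is only a match of letters, and the absence of one says nothing about a factor. The GC content was 64.4% for Nrp1, 72.4% for Nrp2, 48.0% for Sema3e and 62.8% for Plxna2, against a median of 52.4% over all windows.

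The target pathway was read through Gli1 as a check of the labels. Gli1, a transcription factor gene switched on by Hedgehog signalling, averaged 12.3 ± 7.37 at 48 h, against 678.8 ± 42.2 on the vehicle arrays (MAS5 signal, SD, n = 3 each), and Ptch1, another Hedgehog target, averaged 257.0 ± 42.7 at 48 h and 2713.2 ± 174.0 on the vehicle arrays. The Gli1 mean was 632.8 ± 60.9 in the 160 mg/kg and 1164.7 ± 172.1 in the 40 mg/kg resistant tumours. Of 10 tumour and granule neuron progenitor markers, Gli1 was at or under the 40th percentile of signal on 3 of 3 arrays at 48 h. Atoh1 (means of 1527.5 at 48 h and 4101.2 on the vehicle arrays), Gli2 (110.9 and 1298.3) and Ccnd1 (293.8 and 3741.0) were lower at 48 h, while Zic1 (7829.3 and 4388.8) and Neurod1 (6435.1 and 304.6) were higher, and 6 of the 10 were called lower and 3 higher. Over all tested probe sets at 48 h, 17.7% were called lower and 20.6% higher. The 40th percentile, below which a probe set counts as low here, lay between 18.7 and 28.6. Log2 differences are first group minus second, of log2 of the signal with 16 added, and a probe set is called when the limma p-value, adjusted over all tested probe sets, is below 0.05. The values are scaled signals with no count behind them, so the number of arrays limits their precision.

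Both neuropilins were higher at 24 h and higher again at 48 h. Nrp1, the co-receptor that binds Sema3a and VEGF-A, gave 271.4, 314.2 and 349.2 on the vehicle arrays, 1025.7, 925.1 and 968.5 at 24 h and 1554.2, 1258.7 and 1662.8 at 48 h. No array of these 3 groups overlapped another group, and the level was higher at each step. The log2 difference of its main probe set from vehicle was 1.60 ± 0.16 at 24 h and 2.20 ± 0.16 at 48 h (SE). At the earlier times it gave 391.9 and 471.3 on the 4 h vehicle arrays, 374.7, 341.3 and 386.0 at 4 h and 476.3, 433.1 and 347.0 at 8 h, and neither time was called different from the 4 h vehicle. None of the 4 Nrp1 probe sets was called at 4 or 8 h against the 4 h vehicle. Their log2 ranges were -0.22 to 0.37 at 4 h and -0.05 to 0.65 at 8 h, with the main probe set the lowest in each. All 4 Nrp1 probe sets were called higher at both later times, by 1.29 to 1.60 at 24 h and 1.77 to 2.20 at 48 h on the log2 scale.

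Nrp2, the co-receptor that binds Sema3f and VEGF-C, was lower on the vehicle arrays, at 29.4, 47.3 and 60.6, than at 24 h, at 191.0, 157.3 and 254.8, and at 48 h, at 403.1, 295.1 and 387.7. Every 48 h array lay above every 24 h array, and every 24 h array above every vehicle array. The log2 difference from vehicle was 1.82 ± 0.27 at 24 h and 2.63 ± 0.27 at 48 h (SE), and all 4 probe sets were called higher at both times. The 4 h vehicle arrays, at 100.3 and 47.0, overlapped the 4 h drug arrays, at 71.9, 78.5 and 64.5, and the 8 h arrays, at 53.0, 79.2 and 82.6. Over all 23 arrays the log2 signals of Nrp1 and Nrp2 had a Pearson correlation of 0.93, the highest among the 10 genes. Arrays of a group share their treatment, so this describes the groups as much as the arrays.

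Plxnd1, a plexin best known from blood vessels, where it is the receptor of Sema3e, had 1 probe set. It gave 203.2, 206.6 and 203.5 on the vehicle arrays, 294.5, 307.2 and 397.5 at 24 h and 455.9, 464.1 and 479.3 at 48 h. The 3 groups did not overlap. The log2 difference from vehicle was 0.65 ± 0.22 at 24 h and 1.13 ± 0.22 at 48 h (SE), both called higher. The level at 4 h, 263.8 to 299.7, lay above both 4 h vehicle arrays, 237.7 and 200.8, but the difference of 0.34 ± 0.25 was not called.

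Plxna2, a plexin of class 3 and class 6 semaphorins, went the other way at 24 h. It gave 454.4, 358.6 and 477.6 on the vehicle arrays, 180.7, 199.6 and 243.1 at 24 h and 321.0, 331.9 and 283.6 at 48 h. All arrays at both later times lay below all vehicle arrays, and the 24 h arrays were the lowest. The log2 difference was -0.99 ± 0.22 at 24 h, called lower, and -0.44 ± 0.22 at 48 h, not called (SE). At 24 h all 4 probe sets were called lower, at -1.27 to -0.99, and at 48 h 2 of 4 were, over a range of -0.72 to -0.21. Against the 4 h vehicle, at 420.0 and 478.7, the 4 h arrays at 495.1, 403.3 and 439.8 overlapped and the 8 h arrays at 358.1, 373.6 and 337.1 all lay below, a difference of -0.32 ± 0.24 that was not called.

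Plxna4, which with Nrp1 forms a Sema3a receptor, stayed low. Its group means ran from 24.4 ± 12.1 at 8 h to 63.6 ± 11.7 in the 160 mg/kg resistant tumours (SD, n = 3), and the main probe set was called in none of the 10 comparisons. The group with the lowest mean held 1 array at 10.5 beside 2 at 30.3 and 32.3. Its other probe set did not pass the filter, with a highest signal of 25.3.

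**Figure D1:**
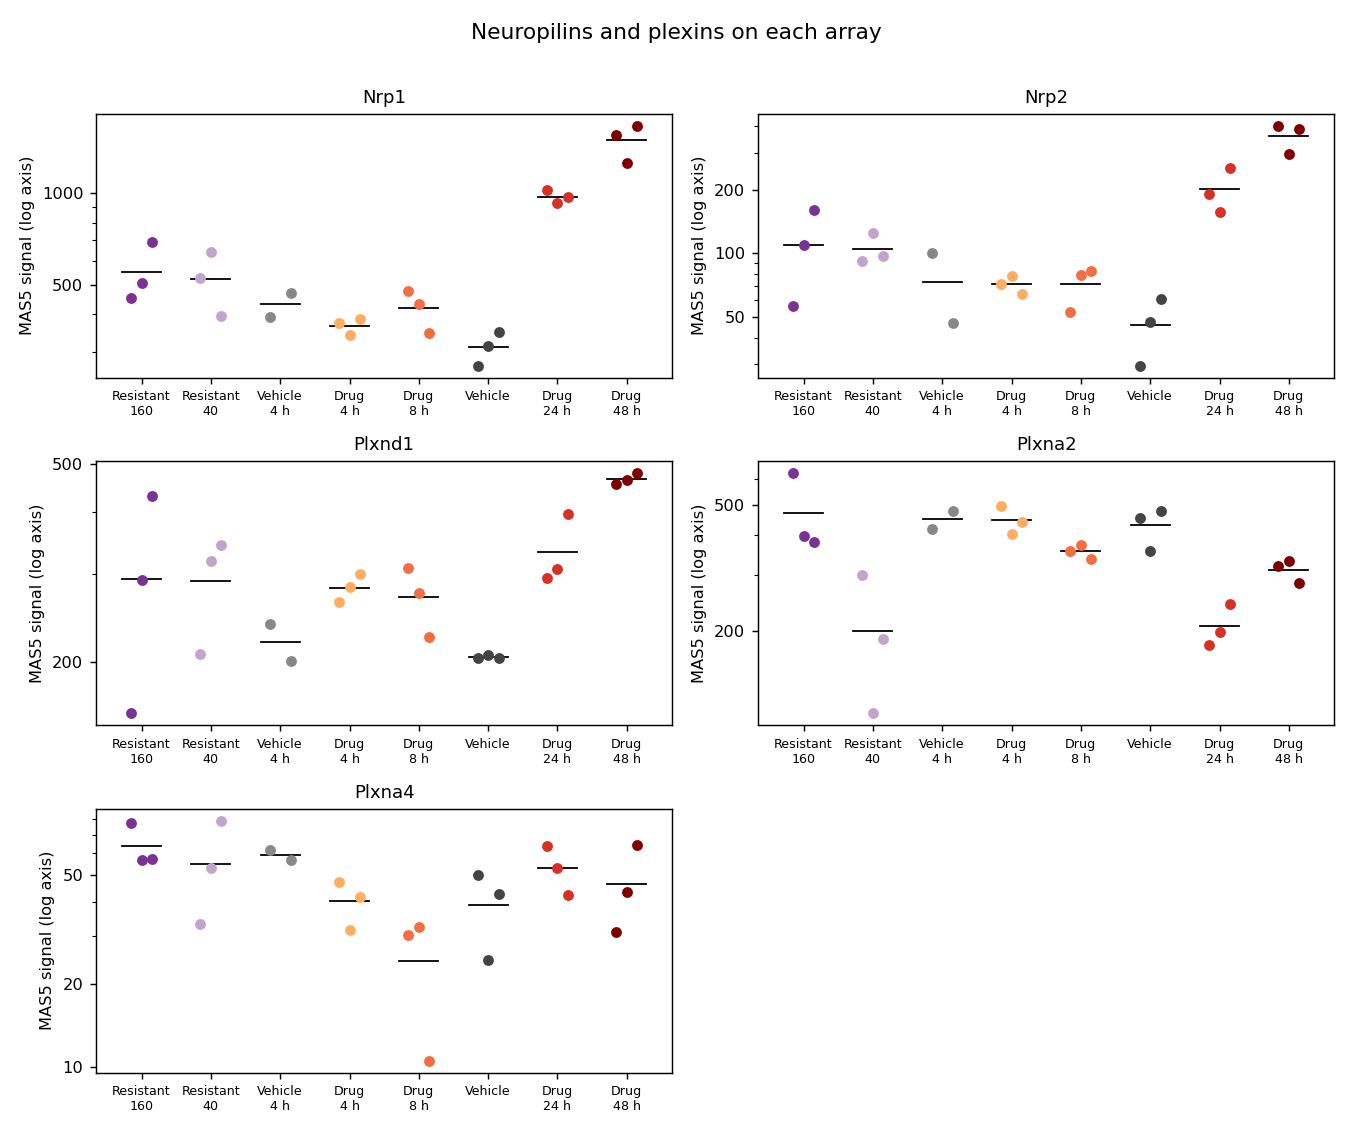
MAS5 signal (log axis) of the main probe set of Nrp1, Nrp2, Plxnd1, Plxna2 and Plxna4 on each array, by group; points are arrays and bars are group means. Nrp1, Nrp2 and Plxnd1 stand above the vehicle arrays at 24 and 48 h, Plxna2 stands below them, and the 40 mg/kg resistant group has the lowest Plxna2 mean.

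Among the 5 ligands, Sema3d, a secreted class 3 semaphorin, had the largest log2 difference at 48 h. Its main probe set gave 10.5, 12.1 and 1.6 on the vehicle arrays, 28.9, 40.4 and 46.4 at 24 h and 167.1, 200.1 and 156.1 at 48 h. The 48 h arrays were above all others, and no array outside 24 and 48 h exceeded its 40th percentile. The probe set therefore passed the filter through the groups in which it was high, and those groups had to differ. On the log2 scale with 16 added, the difference was 1.20 ± 0.26 at 24 h and 3.01 ± 0.26 at 48 h (SE). Low values make these sizes depend on the number added: at 48 h it was 4.58 with 1 added and 1.72 with 64, and at 24 h 2.41 and 0.51. The other probe set, called higher at 48 h by 1.36 ± 0.30 and not at 24 h, also passed mainly through the 48 h group: it exceeded the 40th percentile on 2 of 3 arrays at 48 h and otherwise on 1 of the 4 h vehicle arrays.

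Sema3c, a secreted semaphorin that binds both neuropilins, was high at 24 and 48 h. It gave 164.0, 102.3 and 125.5 on the vehicle arrays, 354.1, 366.7 and 361.5 at 24 h and 263.6, 276.5 and 349.1 at 48 h. Both later times lay above all vehicle arrays, by 1.38 ± 0.40 at 24 h and 1.10 ± 0.40 at 48 h on the log2 scale (SE). The other Sema3c probe set, with signals of 2.4 to 83.0, was called at neither time and differed from vehicle by 0.02 at 24 h.

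Sema6a, a membrane-bound semaphorin, gave 143.6, 116.7 and 144.2 on the vehicle arrays, 244.7, 261.8 and 189.2 at 24 h and 298.8, 343.1 and 360.2 at 48 h. The 3 groups did not overlap, and the log2 difference was 0.71 ± 0.24 at 24 h and 1.22 ± 0.24 at 48 h (SE). Its 2 other probe sets, which never exceeded 59.8, were called at neither time. Sema3a, the axon repellent that signals through Nrp1, lay near the 40th percentile, at 1.3, 7.7 and 20.3 on the vehicle arrays, 32.1, 11.6 and 21.5 at 24 h and 50.1, 22.5 and 36.7 at 48 h. It was called at 48 h alone, by 1.06 ± 0.33. Against the 4 h vehicle arrays, at 25.8 and 19.7, the 48 h difference was 0.41 and not called. Only 1 of 3 Sema3a probe sets passed the filter.

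Sema3e, the secreted ligand of Plxnd1, was by main probe set the ligand with the least change at 24 h. It gave 475.2, 372.9 and 646.8 on the vehicle arrays, 476.3, 480.9 and 494.1 at 24 h and 332.8, 413.4 and 303.8 at 48 h. The 24 h arrays lay inside the vehicle range, with a log2 difference of -0.01 ± 0.39, and the 48 h difference of -0.47 ± 0.39 was not called (SE). At 24 h the 4 probe sets disagreed, over a range of -0.65 to 0.29, and none was called. On 1 of them every 24 h array, 36.4 to 59.8, lay below every vehicle array, 63.6 to 104.1. Of the 4 probe sets, 1 was called lower at 48 h, at -0.79 ± 0.21. At the early times the main probe set gave 644.6 and 714.3 on the 4 h vehicle arrays, 789.6, 886.8 and 913.3 at 4 h and 789.0, 644.7 and 847.1 at 8 h. The 4 h arrays all lay above both 4 h vehicle arrays, yet the difference of 0.34 ± 0.44 was not called. These SE values use a spread shared by all 8 groups, among them the 40 mg/kg resistant arrays, at 2.7 to 110.6.

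**Figure D2:**
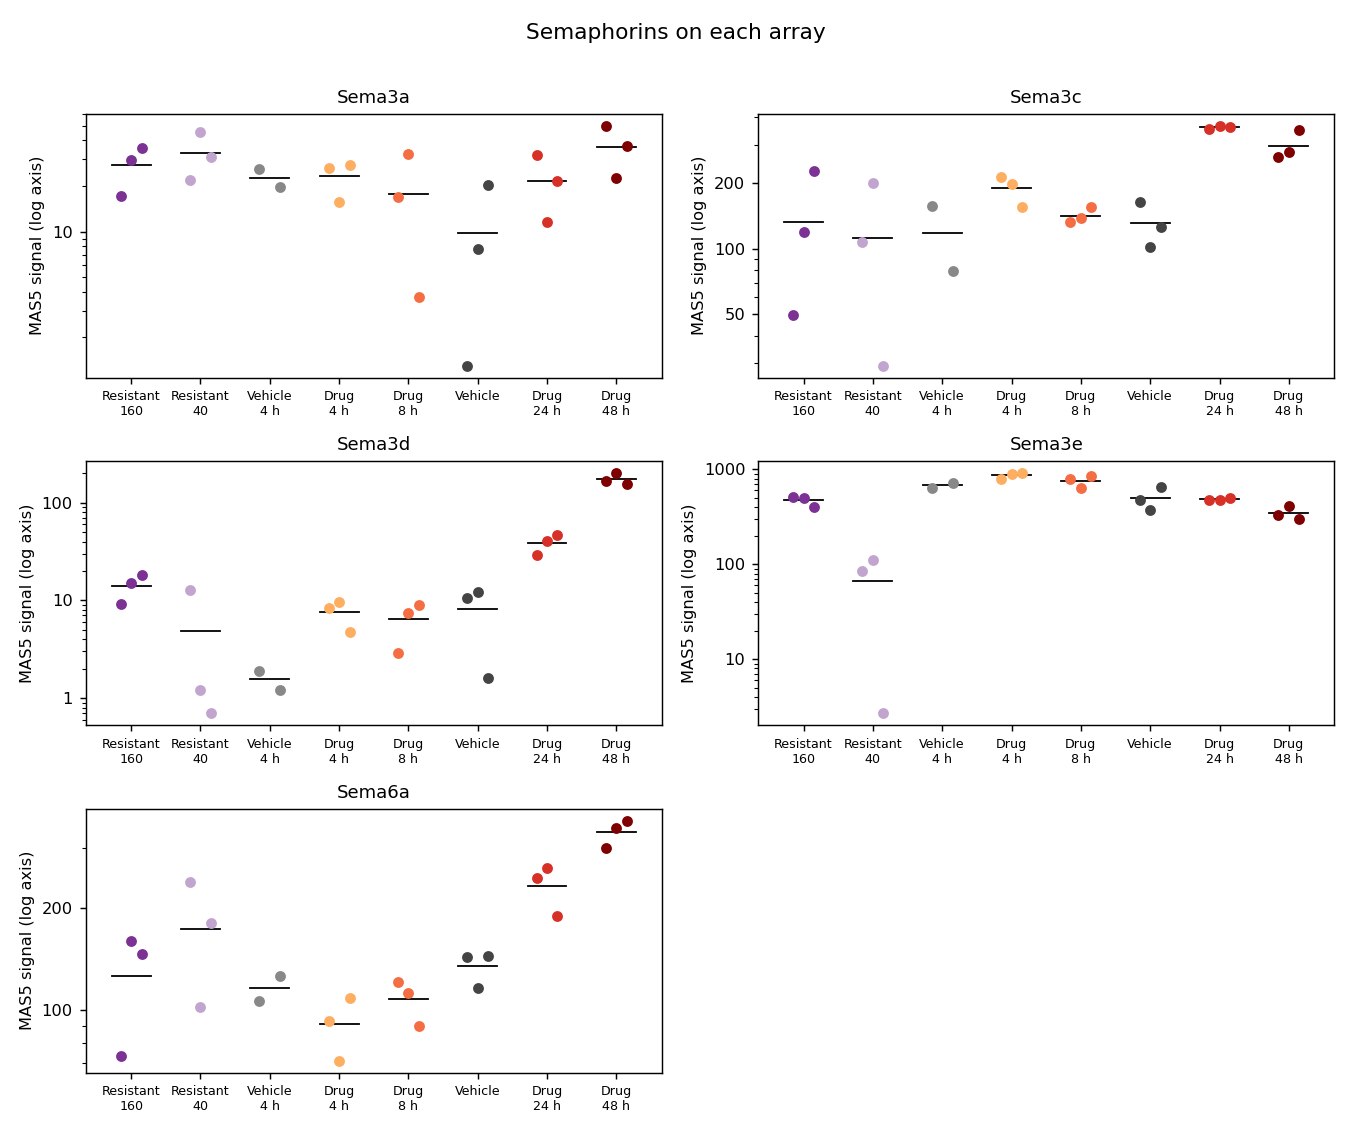
MAS5 signal (log axis) of the main probe set of 5 semaphorins on each array, by group; points are arrays and bars are group means. Sema3d stands out at 48 h, at 156.1 to 200.1, and Sema3e in the 40 mg/kg resistant tumours, at 2.7 to 110.6.

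Counted over the comparisons, none of the 10 genes was called at 4 h against the 4 h vehicle, where 0.285% of the 35066 tested probe sets were called (0.0513% higher and 0.234% lower). None was called at 8 h against the 4 h vehicle or at 8 h against 4 h, where 3.25% (1.45% higher and 1.8% lower) and 0.485% (0.0827% higher and 0.402% lower) of probe sets were called. At 24 h against vehicle, 6 were called higher (Sema3c, Sema3d, Sema6a, Plxnd1, Nrp1, Nrp2) and 1 lower (Plxna2), where 29% of probe sets were called (16.6% higher and 12.5% lower). The median of the 10 log2 differences was 0.68, against 0.10 over all tested probe sets. At 48 h, 7 were called higher, the same 6 with Sema3a, and none lower, where 38.3% of probe sets were called (20.6% higher and 17.7% lower). The median at 48 h was 1.12, against 0.04 over all tested probe sets. Sema3d counts in these calls although it passed the filter only through the 24 and 48 h arrays. At 48 h against 24 h, Sema3d (1.81 ± 0.26), Nrp2 (0.81 ± 0.27) and Nrp1 (0.60 ± 0.16) were called higher, where 20.5% of probe sets were called (9.73% higher and 10.8% lower). Since the genes were picked with these contrasts in view, nothing is read from the counts. The 24 h, 48 h and resistant comparisons share the same 3 vehicle arrays, and the 4 h and 8 h comparisons share the 4 h vehicle arrays.

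Some of these calls were lost when 1 array was left out, at times with little change in size or a larger one. In the full fit the sizes were 0.65 for Plxnd1 at 24 h and 1.10 for Sema3c at 48 h. At 24 h the Sema6a call was lost without 24 h replicate 1 (0.67), 24 h replicate 2 (0.62) or vehicle replicate 2 (0.62). The Plxnd1 call at 24 h was lost without 24 h replicate 3 (0.52) or without any 1 vehicle array (0.65, 0.66 and 0.65). At 48 h the Sema3a call was lost without 48 h replicate 1 (0.87) or vehicle replicate 1 (0.80), and the Sema3c call without 48 h replicate 3 (1.15), 48 h replicate 4 (0.99), vehicle replicate 2 (0.96) or vehicle replicate 3 (1.09). Between 48 and 24 h, the Nrp1 call was lost without 48 h replicate 4 (0.52), and that of Nrp2 without 24 h replicate 1 (0.79), 24 h replicate 2 (0.66), 48 h replicate 1 (0.73) or 48 h replicate 4 (0.76). Other settings ended some of the same calls. The Nrp2 call between 48 and 24 h was lost with 1 added (0.86), with no filter on low signal or without the eBayes trend (0.81 in both), and with the replicate number (0.75) or the title run (0.79) as a block. The Sema3c call at 48 h was lost with 1 added (1.19), without the eBayes trend (1.10) and with the replicate block (1.02), and at 24 h the Plxnd1 call was lost without the trend (0.65) and the Sema6a call with the title run as a block (0.67). The replicate block also ended the Sema3a call at 48 h (1.05) and the Nrp1 call between 48 and 24 h (0.54). The identifier numbers in the sample titles fall into 3 runs, and 24 h replicate 1 is the only 24 h array outside the run of the vehicle arrays. Without it, that is within 1 run, 6 of the 7 genes called at 24 h were still called. The 4 h and 8 h arrays share a run with 4 h vehicle replicate 2, and within that run, where the 1 control array was assumed to vary like the other groups, 0 of the 10 genes was called at either time, as with both 4 h vehicle arrays.

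**Figure D3:**
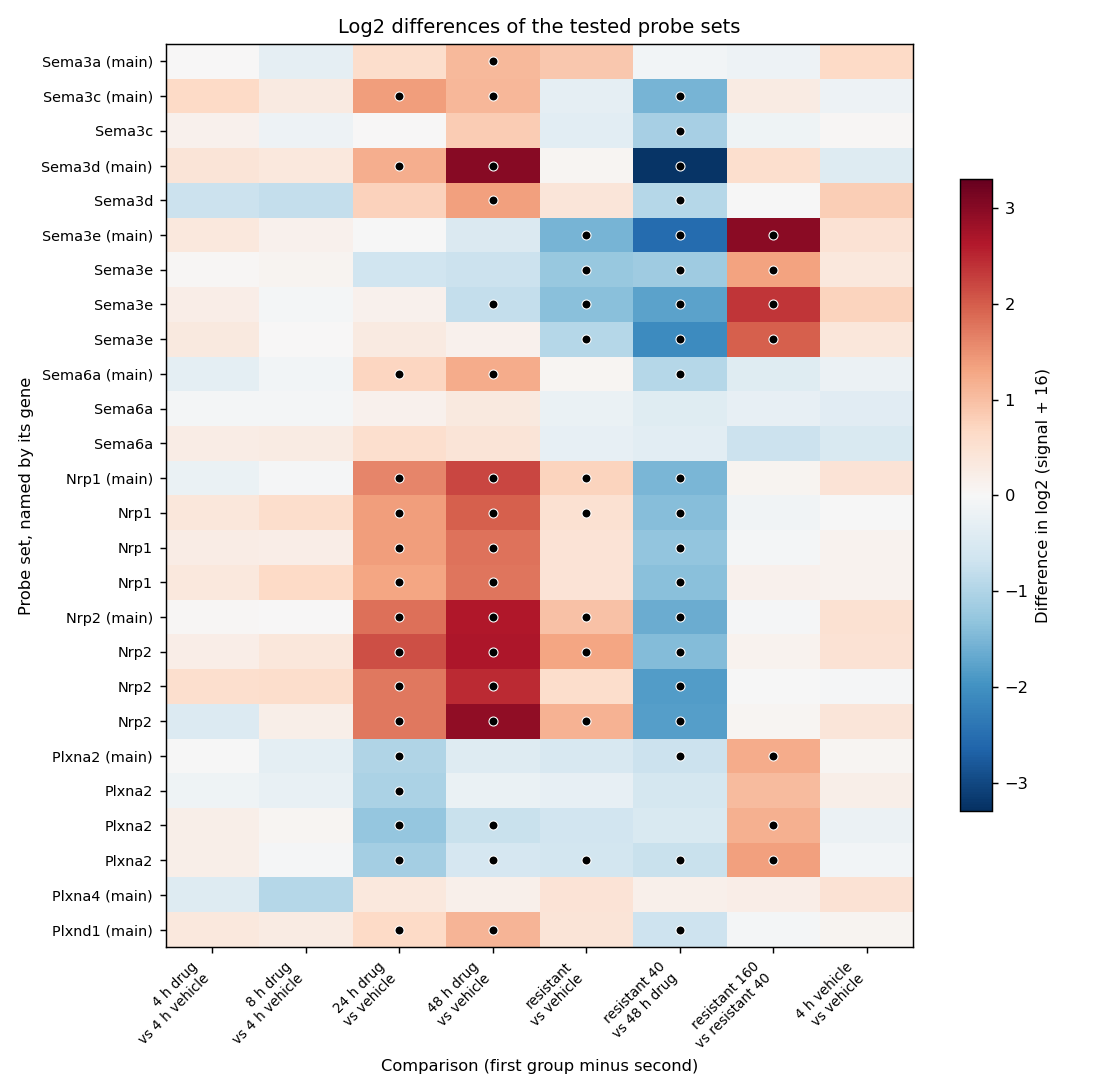
Log2 differences (colour, first group minus second, log2 of signal plus 16) of the 26 tested probe sets in 8 comparisons; dots mark calls at an adjusted p under 0.05. The 8 neuropilin probe sets are called higher at 24 and 48 h, and the 4 Sema3e probe sets are called higher in 160 than in 40 mg/kg resistant tumours.

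In the resistant tumours, 3 of the 10 genes were called against vehicle. With both doses weighted equally, Nrp1 (0.73 ± 0.14) and Nrp2 (0.98 ± 0.24) were called higher than vehicle and Sema3e (-1.53 ± 0.34) lower, where 4.8% of probe sets were called, 2.96% higher and 1.84% lower (log2, SE). Nrp1 gave 453.1, 507.7 and 692.6 at 160 mg/kg and 525.8, 641.0 and 394.9 at 40 mg/kg, all above the 3 vehicle arrays and all below the 24 h arrays. Of the 4 Nrp1 probe sets, 2 were called, and of the 4 Nrp2 probe sets, 3. Nrp2 gave 56.7, 110.1 and 161.0 at 160 mg/kg and 92.6, 125.3 and 97.2 at 40 mg/kg, with the lowest array inside the vehicle range. Neither main probe set kept its call when the 4 h vehicle served as control, an alternative added once the data had been seen. The differences were then 0.28 for Nrp1 and 0.47 for Nrp2. Of the 4 Nrp1 probe sets, the main one differed most between the 2 vehicle groups, by 0.45 in a range of -0.02 to 0.45. The Nrp2 call was lost without vehicle replicate 1 (0.77) or vehicle replicate 2 (1.01), and the Sema3e call without vehicle replicate 3 (-1.33) or with 1 added (-1.97). Sema3a (0.88) and Plxna2 (-0.52) also differed by more than 0.5 on the log2 scale but were not called. Without resistant 160 mg/kg replicate 1, 5 of the 10 genes were called, 3 higher and 2 lower.

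The difference in Sema3e lay between the resistant doses. At 160 mg/kg it gave 516.9, 501.3 and 405.8, inside the vehicle range of 372.9 to 646.8, whereas at 40 mg/kg it gave 84.7, 110.6 and 2.7. The 2 dose groups were far apart, and the 40 mg/kg arrays were the 3 lowest of the 23. The log2 difference, 160 minus 40 mg/kg, was 2.98 ± 0.39 (SE), and all 4 probe sets were called higher, by 1.32 to 2.98. They differed in which 40 mg/kg array was highest, but replicate 3 was the lowest in each: 2.7, 2.0, 2.7 and 13.3.

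Plxna2 showed the same order of doses with a smaller gap. It gave 627.6, 397.5 and 382.4 at 160 mg/kg, against 299.8, 110.6 and 189.8 at 40 mg/kg. The groups did not overlap, with a log2 difference of 1.23 ± 0.22 (SE), and 3 of its 4 probe sets were called higher, over a range of 1.04 to 1.35. These 2 genes were the only ones of the 10 called between the doses, where 2.13% of probe sets were called (1.35% higher and 0.779% lower). The median of the 10 differences was 0.15, against -0.02 over all tested probe sets. Nrp1 differed by 0.08 ± 0.16 and Nrp2 by -0.03 ± 0.27 (SE), and neither was called. When the fit held only these 6 arrays, neither Sema3e nor Plxna2 was called, at the same sizes. Across all 23 arrays Sema3e and Plxna2 had a Pearson correlation of 0.58.

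A list of astrocyte markers, with most of its signal from S100b, also summed higher at 160 than at 40 mg/kg. The summed signal of the 5 markers was 944.0 to 2603.6 at 160 mg/kg and 206.1 to 892.4 at 40 mg/kg. Of the 5, 2 were called higher, where 1.35% of all tested probe sets were. S100b made up most of the sum, with means of 1275.4 at 160 mg/kg and 363.4 at 40 mg/kg. Aldh1l1, a defining astrocyte gene, was at or under the 40th percentile on all arrays of both groups, with means of 15.3 and 12.1. The sum of 7 markers of dividing cells was 8394.4 to 14014.2 at 160 mg/kg and 6869.7 to 10906.6 at 40 mg/kg, and no marker of that list was called. The part of these cells in the difference was not tested.

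**Figure D4:**
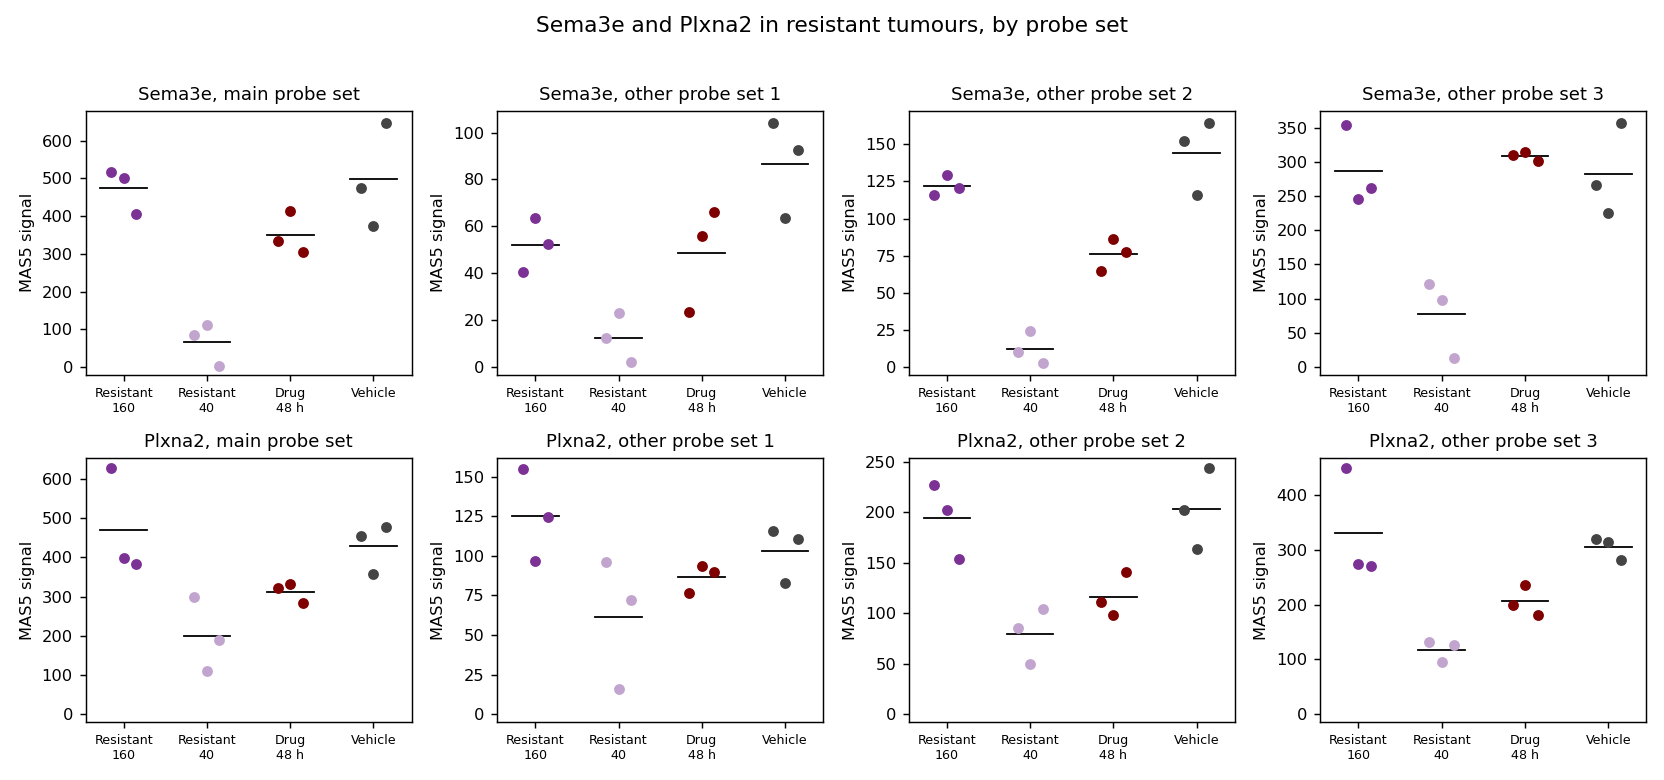
MAS5 signal of each of the 4 probe sets of Sema3e and of Plxna2 (linear axis) in the 2 resistant groups, at 48 h and on the vehicle arrays; points are arrays and bars are group means. In all 4 Sema3e panels the 40 mg/kg resistant arrays lie below the 160 mg/kg ones.

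Set against 48 h of drug at the same 40 mg/kg, the resistant tumours were lower in 8 of the 10 genes, where 30% of probe sets were called (14.6% higher and 15.4% lower). Plxna4 and Sema3a were not called. Of the tested probe sets, 1 of 3 for Sema6a and 2 of 4 for Plxna2 were called lower, and all of those of the other genes called. The median of the 10 log2 differences was -1.23, against -0.02 over all tested probe sets. Sema3d was 12.7, 1.2 and 0.7 in the resistant tumours, against 167.1, 200.1 and 156.1 at 48 h, a log2 difference of -3.23 ± 0.26 that was -5.55 with 1 added and -1.79 with 64. Sema3d, counted among the 8, passed the filter on low signal only through the 24 and 48 h arrays. Its difference from 48 h was thus fixed in advance and is no evidence. Sema3e differed by -2.55 ± 0.39, Nrp2 by -1.64 ± 0.27, Sema3c by -1.54 ± 0.40, Nrp1 by -1.51 ± 0.16 and Sema6a by -0.95 ± 0.24 (SE). Sema3e and Plxna2, lower here, had not been called at 48 h against vehicle. Nrp1, Nrp2, Sema3c, Sema3d, Sema6a and Plxnd1 had been called higher there. Without 40 mg/kg resistant replicate 3, Sema3e differed by -1.69 and the Sema3c call was lost (-0.92). The Plxna2 call (-0.70) was lost without 40 mg/kg resistant replicate 2 (-0.36), 48 h replicate 1 (-0.68) or 48 h replicate 3 (-0.65). It was also lost, at the same size, with only the compared arrays in the fit. The Plxnd1 call (-0.69) was lost without 40 mg/kg resistant replicate 1 (-0.47) or 48 h replicate 4 (-0.67) or with the replicate number as a block (-0.67).

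Within a resistant group the arrays spread widely for some genes. At 160 mg/kg, replicate 1 was the lowest for Nrp1, Nrp2, Plxnd1 (157.4 against 291.6 and 430.8), Sema3c (49.6 against 119.4 and 228.4) and Sema6a (73.5 against 159.3 and 146.6), and the highest for Plxna2. The same array was the lowest of its group in the summed markers of endothelial cells (592.7, against 1227.0 and 2085.4), fibroblasts (4284.5, against 11261.4 and 20551.4) and macrophages (1677.5, against 4284.2 and 6914.1). At 40 mg/kg Plxnd1 gave 207.2, 319.1 and 343.8, Sema3c gave 107.7, 200.5 and 29.1, and Sema6a gave 237.4, 102.4 and 180.3. Arrays of Sema3c and Sema6a lay on both sides of the vehicle range at each dose, and so did those of Plxnd1 at 160 mg/kg, while its 40 mg/kg arrays all lay above the highest vehicle array, 206.6.

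The 2 vehicle groups did not differ by call in any of the 10 genes, where 0.123% of probe sets were called (0.0314% higher and 0.0913% lower). The main Nrp1 probe set nonetheless gave 391.9 and 471.3 on the 4 h vehicle arrays, above the 271.4 to 349.2 of the vehicle arrays. That difference of 0.45 ± 0.18 (SE) was the largest of the 4 Nrp1 probe sets, which ranged from -0.02 to 0.45. Both 4 h vehicle arrays have title numbers outside the run of the vehicle arrays, so vehicle time and title run cannot be told apart.

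Markers of host and neuronal cells were higher at the same times as the neuropilins. The sum of 10 endothelial markers, Kdr among them, was 547.5 to 974.2 on the vehicle arrays, 1123.6 to 1456.5 at 24 h and 1817.5 to 2829.2 at 48 h. Of these 10, 4 were called higher at 24 h and 10 at 48 h. The sum of 8 fibroblast markers was 2975.5 to 8050.4, 17133.9 to 23520.1 and 32466.9 to 45587.4 on the vehicle, 24 h and 48 h arrays, with 7 and then 8 called higher. The sum of 8 macrophage markers was 989.9 to 1673.6, 2204.0 to 3507.9 and 16813.7 to 23642.1, with 4 and then 8 called higher, although Itgam was under the 40th percentile in every group but 48 h. The sum of 8 measured neuronal markers of 10 listed was 2763.6 to 2928.4, 8168.7 to 8887.7 and 11479.5 to 12497.3, with 7 called higher at each time. Over all tested probe sets 16.6% were called higher at 24 h and 20.6% at 48 h.

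Other lists followed different courses. The sum of 8 pericyte and smooth muscle markers was 1932.9 to 2970.0, 4560.6 to 5788.6 and 4898.6 to 7624.1 on the vehicle, 24 h and 48 h arrays, with 6 and then 5 called higher, and Myh11 was at or under the 40th percentile on all vehicle arrays. The sum of 7 markers of dividing cells was 14788.4 to 15448.1, 912.0 to 1188.6 and 1223.4 to 1894.0, with all 7 called lower at each time. Over all tested probe sets 12.5% were called lower at 24 h and 17.7% at 48 h. Skeletal muscle markers varied within groups, from 135.9 to 9041.0 on the vehicle arrays and from 7548.7 to 10895.2 at 24 h. Of 5 astrocyte markers, S100b alone was called at 48 h against vehicle, lower, with means of 37.6 at 48 h and 1234.2 on the vehicle arrays. The other 4 had means at 48 h and on the vehicle arrays of 40.3 and 19.5 (Gfap), 170.1 and 152.6 (Slc1a3), 31.5 and 13.1 (Aldh1l1) and 19.9 and 20.7 (Aqp4). Of 4 measured Schwann cell and oligodendrocyte markers, 1 was called higher and 2 lower at 48 h. RNA integrity was read from actin probe sets, whose 3′ over 5′ log2 ratio was 1.00 to 1.08 on the vehicle arrays, 1.41 to 1.83 at 24 h and 0.84 to 0.96 at 48 h. The part of these cell types and of RNA integrity in the changes of the 10 genes was not tested.

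**Figure D5:**
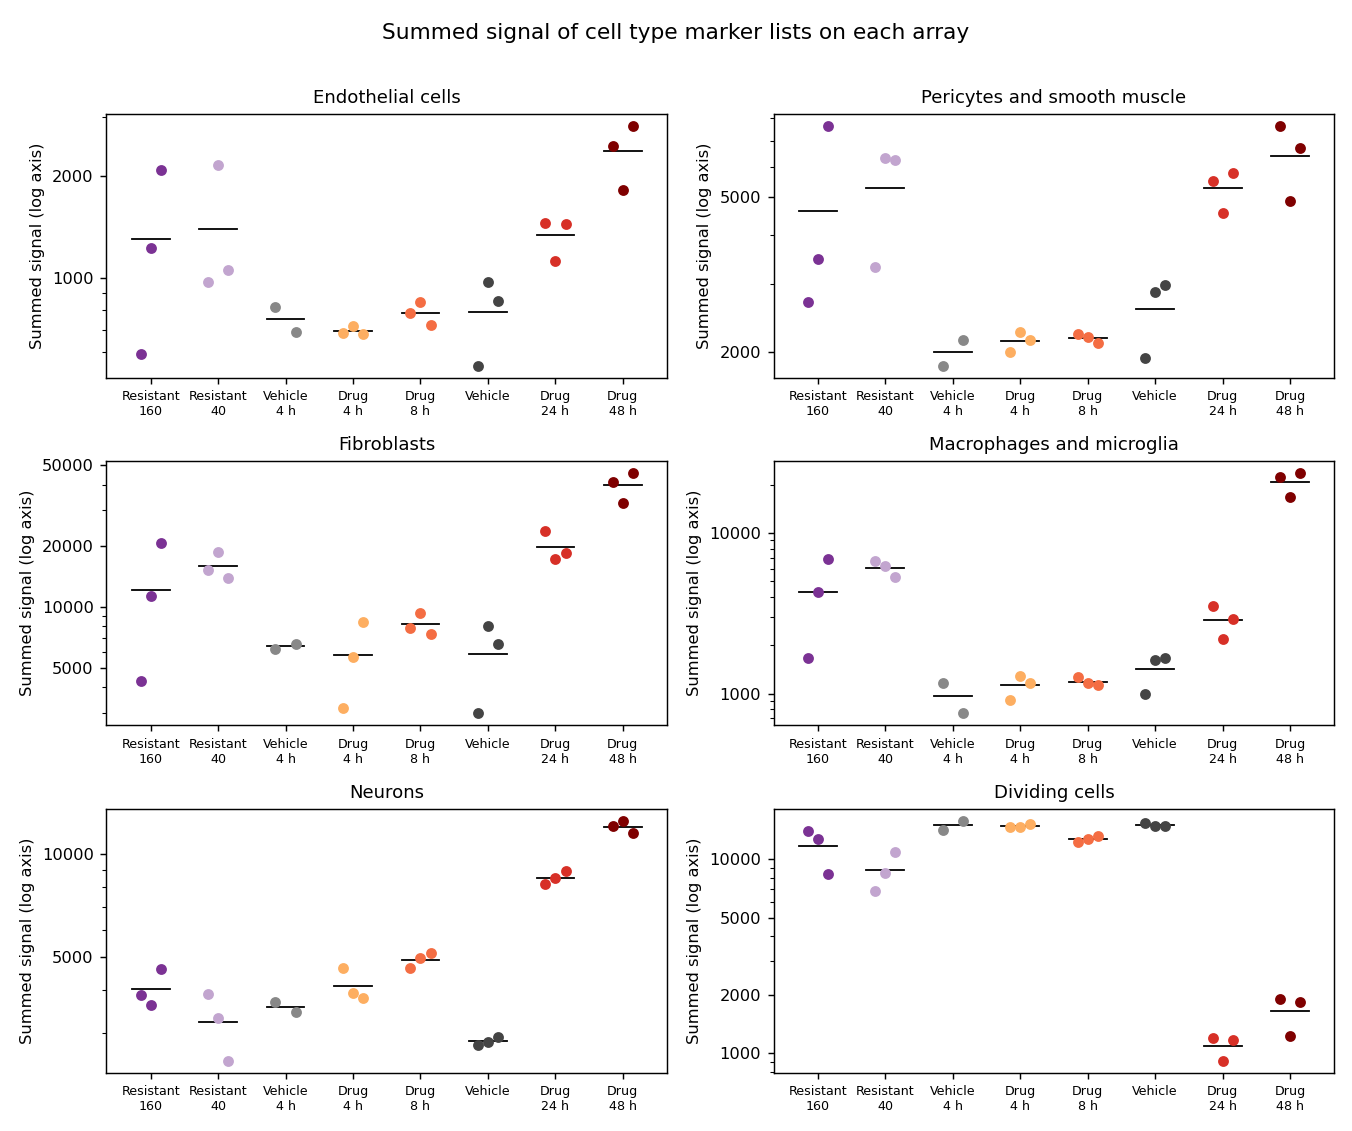
Summed MAS5 signal (log axis) of 6 marker lists on each array, by group; points are arrays and bars are group means. Endothelial, fibroblast, macrophage and neuronal sums stand above the vehicle arrays at 48 h, and the sum for dividing cells stands below them.

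The remaining genes of the pathway were taken as 4 lists: 15 other semaphorins (14 measured), 6 other plexins (6 measured), 39 co-receptors and signal transducers (37 measured) and 8 VEGF ligands and receptors (7 measured). Adjusted p-values below are from limma, over all tested probe sets. At 4 h none of the 64 measured genes was called. At 8 h against the 4 h vehicle 3 semaphorins were called higher and 1 lower, and no gene of the other 3 lists, where 3.25% of all probe sets were called. Sema7a, a lipid-anchored ligand of Plxnc1 and integrins, averaged 3798.9 ± 258.8 at 8 h and 2474.4 ± 33.7 in the 4 h vehicle (SD, n = 3 and 2, log2 0.61, adjusted p = 0.00274). Sema6d, a membrane-bound ligand of Plxna1, averaged 904.0 ± 75.8 at 8 h and 410.7 ± 93.8 in the 4 h vehicle (log2 1.12, adjusted p = 0.0123), and Sema4b differed by 0.90 (adjusted p = 0.020). Only 1 of 4 Sema6d probe sets was called, over a log2 range of -0.06 to 1.12, and 1 of 2 for Sema7a, at 0.61 to 0.87. The Sema4b call was lost with the title run as a block (log2 0.59) and without 8 h replicate 1 (log2 0.76) or 4 h vehicle replicate 1 (log2 0.59), and the Sema6d call without 8 h replicate 2 (log2 1.06) or 4 h vehicle replicate 2 (log2 0.90).

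At 24 h against vehicle, 5 of 14 other semaphorins were called higher and 1 lower, where 29% of all probe sets were called (16.6% higher and 12.5% lower). Their median log2 difference was 0.24, against 0.10 over all tested probe sets. Sema6d averaged 1770.9 ± 61.6 at 24 h and 417.8 ± 44.1 on the vehicle arrays (SD, n = 3 each), a log2 difference of 2.05 ± 0.23 (SE, adjusted p = 2.31e-07). Sema4d, the membrane-bound ligand of Plxnb1, was lower (log2 -1.0 ± 0.14, adjusted p = 4.47e-06) and Sema7a higher by 0.76 ± 0.11 (adjusted p = 5.57e-06). Of the tested probe sets, 2 of 4 for Sema6d, 1 of 3 for Sema4d and 1 of 2 for Sema7a were called. Their log2 ranges were 0.40 to 2.05, -1.10 to -0.07 and 0.20 to 0.76. Of the 6 other plexins, 3 were called higher and none lower, with a median of 0.64. Plxnc1 averaged 1193.0 ± 5.5 at 24 h and 620.8 ± 21.5 on the vehicle arrays (adjusted p = 4.12e-06), and Plxnb2 1493.2 ± 116.8 at 24 h and 744.5 ± 47.3 on the vehicle arrays (adjusted p = 3.85e-05). Plxna3 was also higher, by 0.87 ± 0.17 (adjusted p = 0.000317), with 1 of 2 probe sets called. For Plxnc1 3 of 5 were called.

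Among the 37 co-receptors and transducers, 15 were called higher and 6 lower at 24 h, where 16.6% of all probe sets were called higher and 12.5% lower. At 48 h 17 were called higher and 5 lower, where 20.6% of all probe sets were called higher and 17.7% lower. The median log2 differences of the 37 were 0.29 at 24 h and 0.33 at 48 h, against 0.10 and 0.04 over all tested probe sets. Cntn2, an axonal adhesion protein, averaged 888.6 ± 74.4 at 24 h and 40.0 ± 14.5 on the vehicle arrays (log2 4.04 ± 0.50, adjusted p = 9.85e-07). Of its 4 probe sets 3 were called higher, over a log2 range of 0.06 to 4.04. Genes for the collapsin response mediator proteins, which relay semaphorin signals to microtubules, went in both directions. Dpysl3 averaged 940.3 ± 97.9 at 48 h and 107.6 ± 34.5 on the vehicle arrays (log2 2.99 ± 0.21, adjusted p = 5.48e-11), whereas Dpysl4 averaged 76.5 ± 8.1 at 48 h and 1186.0 ± 153.9 on the vehicle arrays (log2 -3.69 ± 0.17, adjusted p = 5.86e-14). Mical1, an oxidoreductase that acts on actin downstream of plexins, averaged 252.1 ± 19.9 at 48 h and 2490.2 ± 221.4 on the vehicle arrays (log2 -3.22 ± 0.21, adjusted p = 1.83e-11). For Dpysl4 and Mical1 all tested probe sets, 3 and 2, were called lower.

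At 48 h against vehicle, 4 of 14 other semaphorins were called higher and 2 lower, where 20.6% and 17.7% of all probe sets were. Sema6d remained high at 1579.6 ± 71.1 (log2 1.88 ± 0.23, adjusted p = 3.88e-07), with all 4 of its probe sets called. Sema3g, a secreted semaphorin that binds Nrp2, averaged 151.4 ± 64.5 at 48 h and 23.5 ± 18.0 on the vehicle arrays (log2 2.13 ± 0.36, adjusted p = 3.65e-05). Sema7a, higher at 24 h, was lower than vehicle at 48 h (log2 -0.48 ± 0.11, adjusted p = 0.000647) and lower than at 24 h (log2 -1.24 ± 0.11, adjusted p = 2.79e-08). Of the 6 other plexins, Plxna3 (log2 1.12 ± 0.17, adjusted p = 7.76e-06) and Plxnb2 (log2 0.56 ± 0.16, adjusted p = 0.00664) were called higher. The Plxnb2 call at 48 h was lost against the 4 h vehicle arrays (log2 0.32).

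Between 48 and 24 h, 4 of 14 other semaphorins were called higher and 2 lower, where 9.73% and 10.8% of all probe sets were. Among plexins Plxna1 was higher (log2 0.71 ± 0.19, adjusted p = 0.00812) and Plxnc1 lower (log2 -0.62 ± 0.13, adjusted p = 0.000978). Only 1 of 2 Plxna1 probe sets and 1 of 5 Plxnc1 probe sets were called, the latter over a range of -0.62 to 0.22. Sema5a averaged 106.6 ± 18.6 at 48 h and 35.7 ± 2.4 at 24 h (adjusted p = 0.00362), and Sema4f 326.0 ± 29.3 at 48 h and 144.8 ± 18.1 at 24 h (adjusted p = 0.00763). Of the transducers, 6 were called higher and 5 lower. Fes, a tyrosine kinase that binds plexins, averaged 213.1 ± 54.6 at 48 h and 30.1 ± 13.0 at 24 h (adjusted p = 6.23e-05).

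The VEGF genes, whose proteins share the neuropilins with the semaphorins, split by member. Vegfc, the ligand that binds Nrp2 and Flt4, averaged 98.1 ± 22.9 at 48 h and 13.0 ± 9.9 on the vehicle arrays (log2 2.01 ± 0.35, adjusted p = 4.53e-05), with 3 of 3 probe sets called higher. The size for Vegfc was 3.11 with 1 added and 1.07 with 64. Vegfb averaged 128.3 ± 6.1 at 48 h and 255.0 ± 41.8 on the vehicle arrays (log2 -0.90 ± 0.15, adjusted p = 4.15e-05). Pgf, the placental growth factor gene, averaged 8.8 ± 10.3 at 48 h and 69.5 ± 40.8 on the vehicle arrays (log2 -1.76 ± 0.34, adjusted p = 0.000164). The 48 h signals of Pgf, 2.3 to 20.7, lay under the 40th percentile, and the size was -3.22 with 1 added and -0.84 with 64. Over the list, 2 of 7 were called higher and 3 lower at 48 h, where 20.6% and 17.7% of all tested probe sets were. At 24 h 1 was called higher and 1 lower, where 16.6% and 12.5% of all tested probe sets were.

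In the resistant tumours 3 of the 64 related genes were called against vehicle: none of 14 semaphorins, none of 6 plexins, 1 of 37 transducers and 2 of 7 VEGF genes. This is near the share over all probe sets, of which 4.8% were called (2.96% higher and 1.84% lower). Vegfc was higher (log2 1.19 ± 0.30, adjusted p = 0.0209), Vegfb lower (log2 -0.75 ± 0.13, adjusted p = 0.00148) and Dpysl3 higher (log2 0.62 ± 0.18, adjusted p = 0.0463). Of the tested probe sets, 2 of 3 for Vegfc and 1 of 3 for Dpysl3 were called. The Vegfc call was lost without 160 mg/kg resistant replicate 3 (log2 0.99), vehicle replicate 1 (log2 1.21) or vehicle replicate 2 (log2 0.92). The Dpysl3 call was lost without 160 mg/kg resistant replicate 3, 40 mg/kg resistant replicate 1 or 2, or vehicle replicate 1 or 3, with log2 differences of 0.36 to 0.73. The Dpysl3 call was also lost with 64 added (0.47), no filter, quantile normalization (0.57), no eBayes trend, either block, only the compared arrays or the 4 h vehicle as control (0.49). Vegfb kept its call with any 1 array left out but not with only the compared arrays in the fit (log2 -0.75) or against the 4 h vehicle arrays (log2 -0.52). Between 160 and 40 mg/kg, Plxnc1 (log2 0.62 ± 0.13, adjusted p = 0.00653), Farp1 (log2 0.67 ± 0.13, adjusted p = 0.00625) and Crmp1 (log2 1.43 ± 0.36, adjusted p = 0.0348) were higher. Over all tested probe sets 1.35% were called higher between the doses, and of the 5 Plxnc1 probe sets 2 were. The Crmp1 call was lost without any 1 of the 3 arrays at 160 mg/kg or without replicate 2 or 3 at 40 mg/kg, with log2 differences of 0.81 to 1.57, and the Plxnc1 call without 40 mg/kg replicate 3 (log2 0.45). With no filter, no eBayes trend or the title run as a block the Crmp1 call was lost too, and with only the compared arrays none of the 3 was called.

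Against 48 h of drug, the 40 mg/kg resistant tumours differed in 33 of the 64 measured related genes, where 30% of all probe sets were called (14.6% higher and 15.4% lower). Dpysl4 averaged 1218.9 ± 141.0 in these tumours and 76.5 ± 8.1 at 48 h (log2 3.74 ± 0.17, adjusted p = 6.64e-14), and Mical1 1446.0 ± 230.3 in these tumours and 252.1 ± 19.9 at 48 h (adjusted p = 4.18e-09). Dpysl3 was lower, at 150.3 ± 38.4 in these tumours and 940.3 ± 97.9 at 48 h (adjusted p = 1.83e-09), as was Sema6d, at 501.5 ± 151.4 in these tumours and 1579.6 ± 71.1 at 48 h (adjusted p = 4.58e-06). Of the tested probe sets, 2 of 3 for Dpysl3 and 3 of 4 for Sema6d were called lower. In all, 4 of 14 semaphorins were called higher and 4 lower, 3 of 6 plexins lower, 4 of 37 transducers higher and 16 lower, and 1 of 7 VEGF genes higher and 1 lower. Pgf was the VEGF gene that was higher (log2 2.55 ± 0.34, adjusted p = 2.67e-06), by 4.17 with 1 added and 1.36 with 64, against 48 h signals under the 40th percentile. Kdr, the VEGF-A receptor, was lower (log2 -0.65 ± 0.24, adjusted p = 0.0458), a call lost without 40 mg/kg resistant replicate 1 (log2 -0.45) or 3 (log2 -0.48) or 48 h replicate 1 (log2 -0.58) or 4 (log2 -0.58). The Kdr call was also lost with 1 added (-0.72), no filter, quantile normalization (-0.62), no eBayes trend, either block or only the compared arrays.

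For each of the 10 genes, the other genes with the most similar pattern were ranked by Pearson correlation of log2 signal over the 23 arrays, among 14970 genes. Sema3d was most like Stmn2 (0.97), Galr1 (0.95) and Lsamp (0.95). Nrp1 was most like Il6st (0.96), Dpysl3 (0.95) and Tspan4 (0.95), and Nrp2 most like Serping1 (0.95), Plin2 (0.95) and Gpcpd1 (0.95). Plxnd1 was most like Akap12 (0.90), Lgals1 (0.90) and Itm2b (0.89). Sema3e was most like Egfr (0.90), Lifr (0.89) and Cemip2 (0.89), and Plxna2 most like Cerk (0.89), A930004D18Rik (0.85) and Ppp1r3b (0.84). Sema6a was most like Epb41l1 (0.90), Mfsd1 (0.88) and Rhog (0.88), and Sema3c most like Plekha5 (0.88), Parp3 (0.88) and Lhpp (0.88). The weakest best matches were those of Sema3a, with Lysmd3 (0.76), and Plxna4, with Relt (0.72). The arrays of a group share their treatment, so these values follow the group means.

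Among themselves, the 10 genes had correlations of both signs over the 23 arrays. Sema3d correlated with Nrp1 at 0.86 and with Nrp2 at 0.84, Plxnd1 with Nrp2 at 0.84 and Sema6a with Nrp1 at 0.81. Sema3e stood near 0 with Sema3d (0.01) and below 0 with Nrp1 (-0.12), and Plxna2 was negative with Nrp1 (-0.45) and Nrp2 (-0.48). The 4 class 3 semaphorin genes lie on chromosome 5 in the order Sema3d, Sema3a, Sema3e and Sema3c, with 0, 3 and 15 protein-coding genes between neighbours in the GRCm38.p6 RefSeq annotation. At 48 h against vehicle their log2 differences were 3.01 for Sema3d, 1.06 for Sema3a, -0.47 for Sema3e and 1.10 for Sema3c.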

How the data were processed

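The authors deposited MAS5 signal intensity for 45101 probe sets on 23 arrays. MAS5 is named in the submitters' processing notes, with no version, and these deposited intensity values were not normalized again. The array in the design text is the 430A 2.0, but 45101 probe sets match the larger 430 2.0. Groups follow the sample descriptions, although the source label calls 6 of the 12 short-term arrays resistant. All 23 columns were mapped. Probe sets were named from the platform annotation: 34945 probe sets that are no controls have 1 symbol, 932 have several, 9211 (controls among them) have none, and 0 probe sets with several symbols name a member. The 64 control probe sets were left out.

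Signals had 16 added before taking log2, which understates the change of dim probe sets. Tests covered the 35066 probe sets (14980 genes) with 2 or more arrays above the 40th percentile of their own array. A single linear model held all 8 group means, fitted with limma 3.58.1 (eBayes with trend) in R 4.3.3, with data.table, version 1.17.8, and p-values are two-sided. They were adjusted by Benjamini-Hochberg within each of 10 comparisons and called at 0.05. The groups of 2 or 3 arrays thus share their spread. The fit was tested on simulated data. Figures were drawn with matplotlib 3.10.9 under Python 3.11.15, and promoters are RefSeq sequences of GRCm38.p6.

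The members and lists were chosen with earlier results of these data known. Named are the 10 members, Gli1 and Ptch1, up to 3 called genes of each list and comparison with the smallest p, and the 3 genes most correlated with each member. Alternatives were an offset of 1 or 64, no filter or the 60th percentile, eBayes without its trend, quantile-normalized signals, other control arrays, the replicate number or title run as a block, only the compared arrays, and each array left out. The smallest numbers of arrays, 2 and 3 a group, limit the precision.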

Additional observations from a re-analysis of the deposited data

Results flagged for a closer look

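Differences between times of treatment and between resistant dose groups were tested directly as contrasts of the 2 groups. Between 48 and 24 h of treatment, the log2 difference was 1.81 for Sema3d, 0.81 for Nrp2 and 0.60 for Nrp1, all higher at 48 h. Sema3d passed the filter on low signal only through the 24 and 48 h arrays. In all 3 genes every 48 h array lay above every 24 h array. Between the resistant dose groups, 160 minus 40 mg/kg, it was 2.98 for Sema3e and 1.23 for Plxna2. For both genes every 160 mg/kg array lay above every 40 mg/kg array. The genes were picked with these values known, so neither the calls nor the separation of the arrays is independent evidence. How many of all tested probe sets separate in this way was not counted. No outlier test was applied to groups of 2 or 3 arrays.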

How the results depend on the processing

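No log2 difference of the 10 genes or of the named related genes changed direction while called. Of 824 alternative values of the related genes, 48 lost their call. The fit with only the compared arrays called 0 of the 10 genes and 0 related genes for resistant tumours against vehicle and 0 and 0 between the resistant doses, where fewer arrays estimate the spread. It called 7 of the 10 genes at 48 h against 24 h, and 1, 7, 1 and 3 related genes at 4 h and 8 h against the 4 h vehicle, at 8 h against 4 h and between the vehicle groups. With all 5 vehicle arrays as 1 control, 9 related genes were called at 8 h and 6 in resistant tumours. With the title run as a block, 2 were called at 8 h. With the 60th percentile filter, 1 was called at 8 h against 4 h. With the 4 h vehicle as control, chosen after the data were seen, 1 of the 10 genes and 6 related genes were called in resistant tumours. The cause was not tested.

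Leaving out 1 array at a time gave, for the 10 genes, 2 to 5 calls in resistant tumours against vehicle, 2 between doses, 7 for 40 mg/kg resistant tumours against 48 h, 5 to 6 at 24 h, 6 at 48 h, 1 to 3 at 48 h against 24 h and 0 elsewhere. For the related genes it gave 1 to 7, 1 to 10, 26 to 33, 24 to 31, 30 to 36 and 14 to 21 in the same order, 2 to 3 at 8 h against the 4 h vehicle, 0 to 1 at 8 h against 4 h and 0 in the other 2. The 10 related calls between the doses came without 40 mg/kg resistant replicate 1 and the single one without replicate 3. In resistant tumours against vehicle, 1 related gene was called without 160 mg/kg replicate 3 or vehicle replicate 1, 7 without 40 mg/kg replicate 3 and 6 without 160 mg/kg replicate 1.

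Same-numbered arrays of compared groups did not deviate together, with correlations of -0.10 to 0.08, so the numbers were not taken to pair samples. With the replicate number as a block, 1 of the 10 genes was called at 48 h against 24 h, in place of 3, 5 at 48 h against vehicle, in place of 7, and 7 for 40 mg/kg resistant tumours against 48 h, in place of 8.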
